A study of Mus musculus with 38 samples.

Results

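Spleen cells collected 5 days after cyclophosphamide were compared with spleen cells of untreated mice, to see which transcripts had not returned to the untreated level. All DBA/2 mice labelled day 5 (5 animals) and all labelled control (5 animals) were taken, which gave 20 of the 38 array columns and 10 of the 19 mice. The treated mice had received 83 mg/kg of cyclophosphamide by intraperitoneal injection and their splenocytes were harvested on day 5, while the control mice of the same strain received no treatment. Mice sampled on day 1 (4 animals) and day 2 (5 animals) after the same dose entered the same fit and are used here for contrast. Each array compared spleen RNA, labelled with Cy5, with RNA of a pool of untreated DBA/2 bone marrow cells, labelled with Cy3, so that every value is a log ratio of spleen over marrow. The labels and the value table give no log base, base 2 was assumed, and every fold here rests on that. The labels describe the pool as untreated but name cyclophosphamide in the treatment field of that channel, which leaves differences between groups as they are, since the reference is common to all arrays. Each mouse was represented by 2 technical columns, which were averaged. No label gives the age or sex of the mice.

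Cyclophosphamide is activated in the liver to a mustard that crosslinks DNA, and it kills dividing lymphocytes and blood precursors. The mouse spleen holds B cell follicles, T cell areas and a red pulp in which macrophages remove old red cells. Red cells, platelets and granulocytes are also made in the red pulp. That blood formation can expand there when the marrow recovers from damage. A bulk ratio mixes all these cells, so fewer cells of a type and less RNA per cell cannot be told apart.

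A probe was tested where at least 3 untreated and 3 day 5 mice had a value, which held for 8619 of 13443 probes and for 6131 named genes. The technical columns of a mouse correlated between 0.581 and 0.962, and fell under 0.7 for 3 of them: 0.581 for untreated mouse 4, 0.651 for untreated mouse 2 and 0.673 for day 5 mouse 5. Gene lists used here were chosen with earlier results of these data known, so counts in them beside the share of all probes are descriptive. Cell type lists were read in the untreated mice, as spleen against marrow. The list median of the spleen over marrow log2 ratio, averaged over the 5 untreated mice, was 0.30 for the T cell list, -0.95 for genes of early granules and -1.97 for neutrophil genes. It was near 0 for mature B cells (0.06), NK and cytotoxic cells (-0.01) and dendritic cells (-0.08), lists that thus showed no clear excess in spleen. The median standard deviation between mice was 0.238 in the untreated and 0.232 in the day 5 group on the log2 scale, over the 5947 probes measured in all 10 mice.

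Few transcripts differed between day 5 and untreated spleen. With limma and Benjamini-Hochberg adjustment over all 8619 probes, 6 probes (0.0696%) passed an adjusted p of 0.05, of which 4 (0.0464%) were higher and 2 (0.0232%) lower on day 5. In the same fit 194 probes (2.31%) passed on day 1 and 686 (8.09%; 3.2% higher, 4.9% lower) on day 2, each against the same untreated mice. Between day 5 and day 2, 430 of 8477 probes (5.07%) passed, 308 (3.63%) higher and 122 (1.44%) lower on day 5. That count was 69 (57 higher, 12 lower) after quantile normalization, 153 (134 higher, 19 lower) with equal spread between mice and 731 (481 higher, 250 lower) with mouse as a random effect, so shares of day 2 calls hold for the fit reported. Without adjustment 447 probes (5.19%) had a p under 0.05, 262 (3.04%) higher and 185 (2.15%) lower. About that share of probes has a p under 0.05 where nothing differs. A difference of 2-fold or more was estimated for 32 probes (0.371%), 24 higher and 8 lower, compared with 70 higher and 154 lower on day 2. All 5 day 5 mice lay outside the range of all 5 untreated mice for 56 of 5947 probes (0.942%), above it for 33 (0.555%) and below it for 23 (0.387%). With 5 mice a group some probes separate in this way without any difference, and how many was not computed. Neither this count nor a lack of overlap for a single gene below is thus read as a result. The 95% interval of the day 5 difference lay within 2-fold in either direction for 8123 probes (94.2%), and the median interval reached 0.37 to either side of its estimate. For the other probes the interval reaches 2-fold or more.

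The count of 6 was small enough for a single animal to change it. It was 0 without untreated mouse 2, untreated mouse 5, day 1 mouse 4, day 5 mouse 4 or day 5 mouse 5, when between 283 and 476 probes still had an unadjusted p under 0.05. It was 1 without day 5 mouse 2 or mouse 3, 2 without untreated mouse 1, day 2 mouse 2, day 2 mouse 5 or day 5 mouse 1, and 3 without day 1 mouse 2, day 1 mouse 3 or day 2 mouse 1. The differences of the 6 called probes kept their sign in all these fits.

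**Figure D1:**
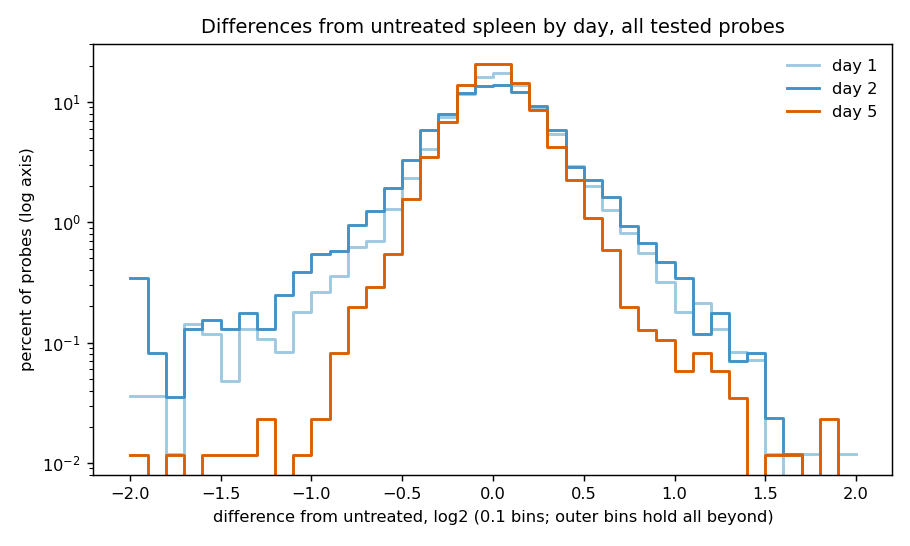
Differences from the untreated mice for all probes tested, as the percent of probes (log axis) in bins of 0.1 on the log2 scale, on day 1, day 2 and day 5. The day 5 curve is the narrowest of the 3, with 32 probes at 2-fold or more.

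The 4 genes called higher on day 5 were Itga2b, F13a1, App and Thbd. Itga2b encodes integrin alpha IIb, the fibrinogen receptor subunit of platelets and megakaryocytes, and F13a1 the A subunit of coagulation factor XIII, carried by platelets, monocytes and macrophages. App encodes the amyloid precursor protein, which platelets and many other cells hold, and Thbd thrombomodulin, the thrombin receptor of endothelium that turns thrombin towards activating protein C. The stretch of 300 bases around the transcription start (250 before, 50 after) is shown for the 3 of these genes with an entry, since they are the genes that stood off the untreated level. The sequences are from RefSeq, build GRCm38.p6, all on the minus strand and read 5′ to 3′: Itga2b at chr11:102469834-102470133, F13a1 at chr13:37050195-37050494 and App at chr16:85173658-85173957. Capitals mark every match on either strand to GATAA (the core bound by GATA factors of red cells and megakaryocytes), AGGAAG (a purine core of the ETS family) or GGGCGG (the GC box).
Itga2b: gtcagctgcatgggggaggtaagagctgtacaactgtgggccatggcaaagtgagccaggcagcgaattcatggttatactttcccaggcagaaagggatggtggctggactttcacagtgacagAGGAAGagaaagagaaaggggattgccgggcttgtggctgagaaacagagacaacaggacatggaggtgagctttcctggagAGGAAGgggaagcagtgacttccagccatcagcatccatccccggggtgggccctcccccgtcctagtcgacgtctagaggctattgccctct
F13a1: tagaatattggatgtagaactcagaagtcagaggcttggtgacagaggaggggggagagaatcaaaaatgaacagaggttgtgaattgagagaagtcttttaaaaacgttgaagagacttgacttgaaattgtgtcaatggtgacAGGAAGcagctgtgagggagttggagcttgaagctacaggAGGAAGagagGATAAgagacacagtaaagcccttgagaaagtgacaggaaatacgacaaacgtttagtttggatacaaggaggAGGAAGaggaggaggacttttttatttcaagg
App: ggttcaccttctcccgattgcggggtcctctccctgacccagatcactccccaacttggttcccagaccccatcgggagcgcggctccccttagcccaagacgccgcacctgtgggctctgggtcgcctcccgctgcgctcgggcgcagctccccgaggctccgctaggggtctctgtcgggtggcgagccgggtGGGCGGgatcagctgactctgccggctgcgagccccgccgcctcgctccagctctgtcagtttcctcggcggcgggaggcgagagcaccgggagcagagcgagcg
The Itga2b stretch held AGGAAG 2 times, the F13a1 stretch GATAA 1 time and AGGAAG 3 times, and the App stretch GGGCGG 1 time. Among 27025 RefSeq promoter stretches of that length 25.8% held GATAA, 35.1% AGGAAG and 35.9% GGGCGG, so each motif is common. AGGAAG and GATAA can share a base, and no 2 of the matches printed here do. A match is a description of the sequence, not a bound site, and a missing match says only that these letters are not in this window.

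Itga2b rose 2.15-fold by day 5. Its log2 ratios were -0.55, 0.16, 0.24, -0.26 and 0.17 in the untreated mice and 0.94, 0.87, 0.93, 1.19 and 1.36 in the day 5 mice. The groups did not overlap, with the lowest day 5 mouse at 0.87 and the highest untreated mouse at 0.24. The difference was 1.11 ± 0.20 (SE, 5 mice a group, limma adjusted p = 0.0400), with a 95% interval of 1.61-fold to 2.87-fold. It was 0.59 on day 1 (adjusted p = 0.176) and 0.85 ± 0.21 on day 2 (adjusted p = 0.0159), against the same untreated mice, and day 5 minus day 2 was 0.25 ± 0.21 (adjusted p = 0.588). The call was kept in 4 of the 19 fits that left out 1 mouse (without untreated mouse 3, day 1 mouse 3, day 2 mouse 3 or day 2 mouse 4), with differences of 0.98 to 1.18 and adjusted p up to 0.163 in all 19.

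Of the other genes of platelets and megakaryocytes 8 of 9 lay above the untreated mean, as did 4503 of all 8619 probes, and none passed the threshold. Of the 10 genes of that list that were measured, 1 was called and 7 had an unadjusted p under 0.05, all of them higher on day 5. The background for that count is 3.04% of all probes, though the list was chosen with earlier results of these data known. The list had a median difference of 0.66 on day 5, 0.55 on day 2 and 0.45 on day 1. The day 5 median was 1.03 without the 3 mice of low technical correlation and 0.56 without untreated mouse 3. Over all probes the median was 0.01 on day 5. The median over the list, taken in each mouse relative to the untreated mean, was 0.56, 0.84, 0.52, 1.15 and 0.76 in the day 5 mice and 0.17, 0.21, -0.11, -0.22 and 0.06 in the untreated mice. Every day 5 mouse lay above every untreated mouse on this score, which Itga2b, one of its members, was part of.

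Ppbp, the precursor of a chemokine that platelets store in alpha granules, had log2 ratios of 1.14, 0.85, 0.15, -0.10 and -0.77 in untreated and 1.11, 1.39, 1.08, 1.61 and 1.85 in day 5 mice. 3 of the day 5 mice lay above all untreated mice, and the untreated mice were widely spread. The difference was 1.15 ± 0.28 (adjusted p = 0.365). F2rl2, which encodes the platelet thrombin receptor PAR3, had a difference of 0.84 ± 0.22 (adjusted p = 0.441), with 4 day 5 mice above all untreated mice. Treml1, a receptor of platelet alpha granules, had 0.61 ± 0.20 (adjusted p = 0.865), again with 4 day 5 mice above the untreated range.

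Pf4, Plek and Rab27b were the other 3 list genes with an unadjusted p under 0.05, and are named after their values were seen. Pf4, platelet factor 4, had 1.44, 2.24, -0.06, 2.26 and 1.66 in day 5 mice and -0.13 to 0.77 in untreated mice, so that day 5 mouse 3 stood with the untreated group and the other 4 above it. The difference was 1.19 ± 0.42 (adjusted p = 0.913). Plek, the protein kinase C substrate pleckstrin, had 0.71 ± 0.23 on day 5 (adjusted p = 0.866), after 1.08 ± 0.23 on day 2 (adjusted p = 0.00568). Rab27b, a GTPase of platelet granule release, had 0.57 ± 0.26 (adjusted p = 0.913), with day 5 mouse 3 below all untreated mice and the other 4 above them.

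The remaining 3 list genes had intervals that held 0: Itgb3, the partner chain of Itga2b, at 0.11 (-0.17 to 0.39), Clec1b, the platelet podoplanin receptor, at 0.28 (-0.22 to 0.78), and P-selectin gene Selp at -0.42 (-0.98 to 0.13). Selp was measured in 3 mice of each group, the day 5 mice all lower, and Clec1b in 3 untreated and 4 day 5 mice. P2rx1, an ATP-gated channel of platelets that is on none of the lists and was picked by its p, did not pass the threshold, with 0.70 ± 0.16 (adjusted p = 0.226). Its day 2 difference was 0.71 ± 0.16 (adjusted p = 0.00589). Its day 5 mice had -0.20, 0.40, 0.59, 0.83 and 0.18 against -0.52 to -0.17 in untreated mice, so 4 of 5 lay above that range.

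**Figure D2:**
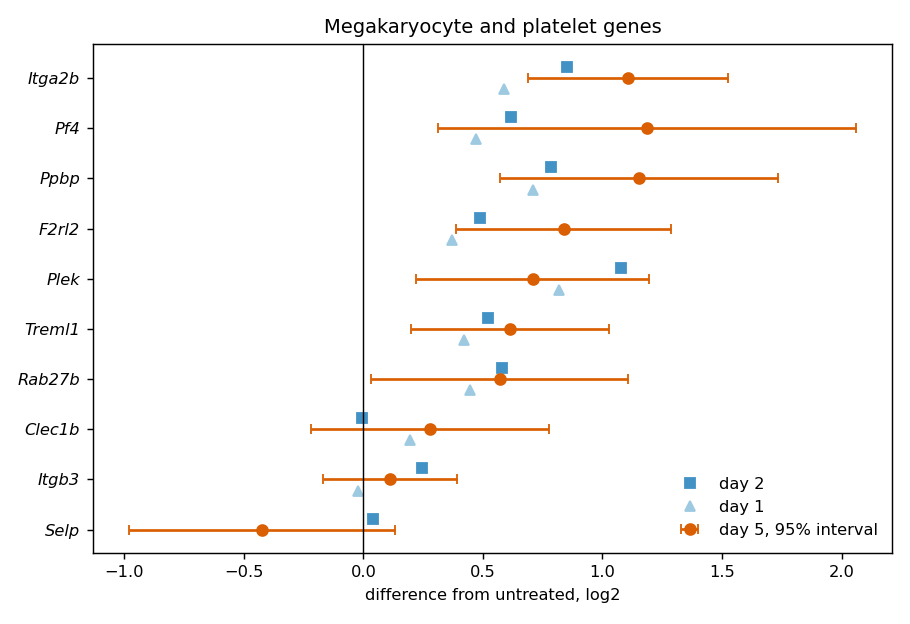
Differences from the untreated mice on the log2 scale for the 10 measured genes of the megakaryocyte and platelet list, on day 5 (points with 95% interval), day 2 (squares) and day 1 (triangles; none for Selp). The day 5 interval lies above 0 for 7 genes, and the estimate lies below 0 for Selp alone.

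F13a1 rose 2.38-fold by day 5, after a fall on day 2. The transcript was far lower in spleen than in the marrow pool in every group. Its log2 ratios were -3.10, -3.05, -2.81, -3.14 and -3.20 in the untreated mice, -4.62, -3.58, -4.18, -3.31 and -3.87 on day 2 and -1.94, -2.02, -1.79, -1.40 and -1.91 on day 5. All day 2 mice lay below and all day 5 mice above the untreated range. The day 5 difference was 1.25 ± 0.22 (adjusted p = 0.0400, interval 1.72-fold to 3.29-fold). On day 2 F13a1 fell by 0.85 ± 0.22 (adjusted p = 0.0211), and on day 1 the difference was -0.74 (adjusted p = 0.115). Day 5 minus day 2 was 2.10 ± 0.22 (adjusted p = 5.3e-06). The day 5 call was lost under other ways of scaling the arrays: the difference was 0.57 after quantile normalization (adjusted p = 0.751) and 1.58 with equal spread between mice (adjusted p = 0.359). The call was also lost with a variance trend in limma (adjusted p = 0.918). It was kept in 6 of 19 fits without 1 mouse (without untreated mouse 3, day 1 mouse 1 or 2, or day 2 mouse 1, 3 or 4), with 1.15 to 1.31 and adjusted p up to 0.158 in all 19.

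F13a1 was the 1 gene called among those of monocytes and neutrophils. The monocyte list had 1 of 9 genes called (0.0464% of all probes were called higher) and 3 with an unadjusted p under 0.05, all higher (3.04% of all probes). Its median was 0.40 on day 5, 0.24 on day 2 and 0.18 on day 1, and without day 5 mouse 2 the day 5 median was 0.19. The other 2 were Ms4a6c, a membrane protein of monocytes, at 0.42 ± 0.18, and Clec4e, the receptor Mincle, at 0.44 ± 0.18 (both adjusted p = 0.913). Lysozyme gene Lyz2 had 0.75 ± 0.46, with untreated mice spread from -2.63 to 0.36. Scored over the list, the day 5 mice ran from 0.01 to 0.50 and the untreated mice from -0.08 to 0.10, so that they overlapped.

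Neutrophil genes had a median of 0.42 on day 5 over 12 measured genes, against 0.06 on day 2 and -0.04 on day 1. After quantile normalization that median was 0.01, and without day 5 mouse 4 it was 0.26. None of the 12 was called, while Cd177, Hp and Clec4e had an unadjusted p under 0.05, all higher (3.04% of all probes). Cd177, a surface glycoprotein of neutrophils, had -3.19, -3.89, -3.53, -4.15 and -4.32 in untreated and -2.90, -3.24, -3.06, -1.38 and -3.11 in day 5 mice. 4 day 5 mice lay above all untreated mice, and day 5 mouse 4 stood far above the rest. The difference was 1.08 ± 0.29 (adjusted p = 0.516), and against day 2 Cd177 was higher by 1.62 ± 0.29 (adjusted p = 0.00193).

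Haptoglobin gene Hp, stored in neutrophil granules, had 1.30 ± 0.43 (adjusted p = 0.866) and lay 1.499 ± 0.43 above day 2 (adjusted p = 0.0491). Lactoferrin gene Ltf had 0.80 ± 0.42 (adjusted p = 0.913) and lay 1.48 ± 0.42 above day 2 (adjusted p = 0.0463). In both, day 5 mouse 4 was again the highest of its group, at -0.33 for Hp and -1.45 for Ltf. S100a9, the abundant calgranulin of mature neutrophils, chosen after its values were seen like Lyz2, Prtn3 and C1qb, had -0.60 ± 0.54 (adjusted p = 0.934), opposite in sign to these. Against day 2, 3 of the 12 neutrophil genes passed, all higher, where 3.63% of all 8477 probes tested did.

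Genes of early granules, made in promyelocytes, had a median of 0.40 over 8 genes with none called. That median was 0.12 after quantile normalization, 0.14 without untreated mouse 4 and 0.20 without day 5 mouse 4. Prtn3, proteinase 3, had 0.56 ± 0.50 and Gfi1, a transcription factor of granulocyte precursors, 0.40 ± 0.24, while Chil3 had -0.71 ± 0.28 with 4 mice a group (adjusted p = 0.934, 0.913 and 0.913).

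App rose 1.63-fold and was the gene with the smallest p of those called. Its log2 ratios were -0.20, -0.04, 0.14, -0.01 and -0.26 in the untreated mice, 1.46, 1.08, 1.42, 1.27 and 1.04 on day 2 and 0.58, 0.70, 0.57, 0.83 and 0.48 on day 5. Each of the 5 day 5 mice lay above the untreated range and below the day 2 range. The day 5 difference was 0.71 ± 0.12 (adjusted p = 0.0377, interval 1.37-fold to 1.94-fold), after 1.14 on day 1 (adjusted p = 2.59e-05) and 1.33 ± 0.12 on day 2 (adjusted p = 3.17e-07). Day 5 was lower than day 2 by 0.62 ± 0.12 (adjusted p = 0.00314). A second App probe had 0.36 ± 0.21 on day 5 (adjusted p = 0.913) and 0.80 ± 0.23 on day 2 (adjusted p = 0.0331), and the average of the probes had 0.53 on day 5 (adjusted p = 0.474). The App call was lost in 9 of 19 fits, those without untreated mouse 1, 2 or 5, day 1 mouse 4 or any of the day 5 mice, with 0.66 to 0.76 and adjusted p up to 0.145.

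Thbd rose 1.58-fold, with similar differences on all 3 days. Its log2 ratios were -0.02, -0.54, -0.43, 0.04 and -0.27 in the untreated mice and 0.28, 0.67, 0.31, 0.44 and 0.38 on day 5, with no overlap. The difference was 0.66 ± 0.12 (adjusted p = 0.0451, interval 1.32-fold to 1.89-fold), after 0.69 on day 1 (adjusted p = 0.00562) and 0.75 ± 0.12 on day 2 (adjusted p = 0.000488). Day 5 minus day 2 was -0.09 ± 0.12 (adjusted p = 0.768). The call was kept in 1 of 19 fits, without untreated mouse 4, with 0.59 to 0.73 and adjusted p up to 0.200 in all 19. Under the 17 other settings the Thbd call was kept in 5, with adjusted p up to 0.578 in a fit of the compared groups alone. Of those settings Itga2b, F13a1 and App each kept the call in 8 of 17.

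**Figure D3:**
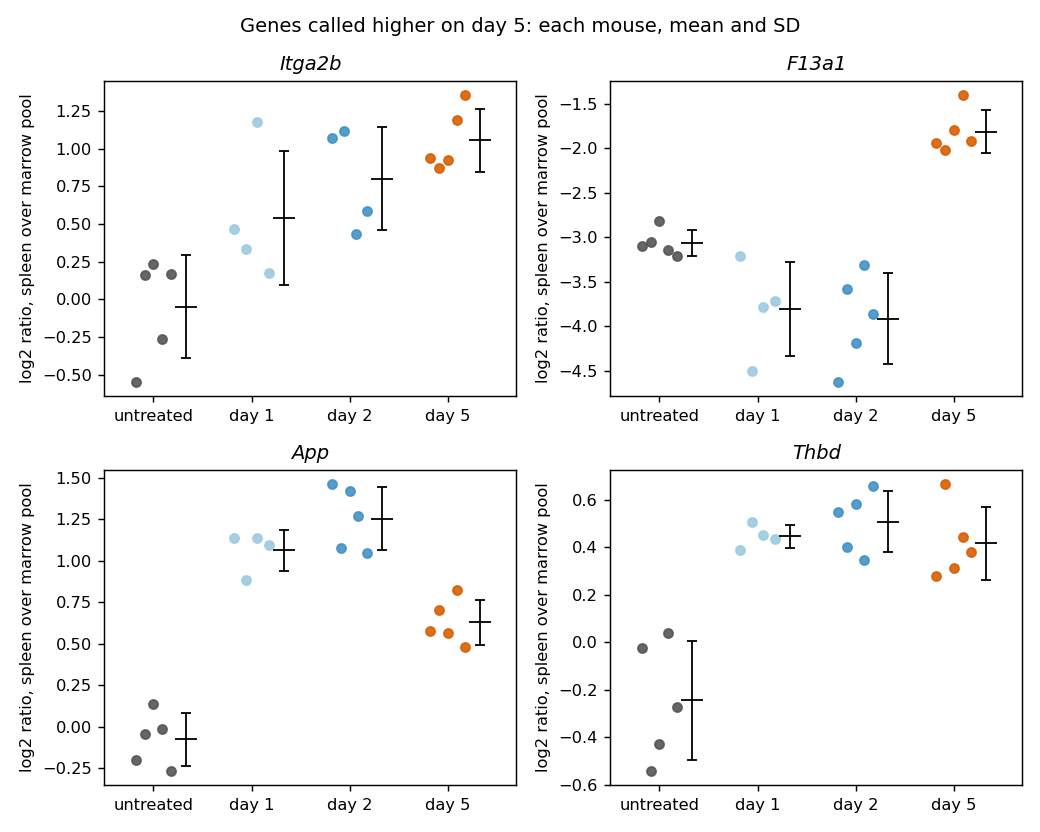
Log2 ratios of spleen over the marrow pool in each mouse for Itga2b, F13a1, App and Thbd, by group, with the group mean and SD beside the points; each panel has its own axis, which does not start at 0. In all 4 panels the 5 day 5 mice lie above the 5 untreated mice, and F13a1 is lowest on day 2.

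Of 15 measured endothelial genes Thbd was the 1 called (0.0464% of all probes were called higher). The other with an unadjusted p under 0.05 was Cdh5, which was lower (2.15% of all probes were lower at that p). Cdh5, the cadherin of endothelial junctions, had 0.40, 0.43, 0.49, 0.52 and 0.22 in untreated and 0.18, 0.01, -0.05, 0.14 and 0.22 in day 5 mice, a difference of -0.31 ± 0.12 (adjusted p = 0.913). Eng, an endothelial coreceptor for TGF-beta, had 0.27 ± 0.14 (adjusted p = 0.913) and lay 0.52 ± 0.14 above day 2 (adjusted p = 0.0313). The list's median was 0.19 on day 5 and 0.36 on day 2, and on day 5 it was 0.10 without untreated mouse 3 and 0.12 with array weights.

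The fibroblast and stroma list had a median of 0.34 over 12 genes on day 5, 0.62 on day 2 and 0.88 on day 1, with none called on day 5. The day 5 median was 0.11 without untreated mouse 4, 0.16 without day 5 mouse 2, 0.19 without the 3 mice of low technical correlation, 0.13 with equal spread, 0.20 with array weights and 0.52 from technical column 1 alone. Clu, clusterin, a secreted chaperone of follicular dendritic and other stromal cells, had 1.00 ± 0.37 (adjusted p = 0.913), after 1.26 ± 0.37 on day 2 (adjusted p = 0.0381). Its 4 highest day 5 mice lay above all untreated mice and day 5 mouse 3, at 2.52, among them. Igfbp7, measured in 3 mice of each group, had -0.66 ± 0.21 (adjusted p = 0.866). Col14a1, a fibril collagen, had 0.40 ± 0.28 on day 5 (adjusted p = 0.913) and lay 1.08 ± 0.28 below day 2 (adjusted p = 0.0282).

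Both probes called lower on day 5 carry no gene name in the annotation used here. Probe 012P16 had 1.66, 2.09, 2.30, 1.11 and 2.45 in the untreated mice and 0.76, 1.15, -0.12, 0.48 and 0.15 on day 5. Day 5 mouse 2 lay just above untreated mouse 4, and the other 4 day 5 mice lay below the untreated range. The probe fell by 1.44 ± 0.23 (adjusted p = 0.0338), which is 2.71-fold lower. On day 2 its difference was -0.20 ± 0.23 (adjusted p = 0.665), and day 5 was lower than day 2 by 1.24 ± 0.23 (adjusted p = 0.00245). The call was lost in 6 of 19 fits, those without untreated mouse 2 or 5, day 1 mouse 4 or day 5 mouse 3, 4 or 5, where it had adjusted p up to 0.133.

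Probe 014L03 fell by 1.57 ± 0.29 (adjusted p = 0.0400), which is 2.98-fold lower. It had 2.12, 2.05, 1.77, 2.93 and 2.78 in the untreated mice and 0.42, 0.34, 1.64, 0.78 and 0.61 on day 5, without overlap. It had already fallen by 1.07 ± 0.29 on day 2 (adjusted p = 0.0247), and day 5 minus day 2 was -0.50 ± 0.29 (adjusted p = 0.382). The call was kept in 4 of 19 fits, without untreated mouse 3, day 1 mouse 1, day 2 mouse 4 or day 5 mouse 3, with adjusted p up to 0.173 in all 19. The next probe by p was that of Gsdma, a gasdermin of epithelia, named here for its rank by p, at -0.94 ± 0.20 (adjusted p = 0.143). It had fallen by 1.12 ± 0.20 on day 2 (adjusted p = 0.000911), and day 5 minus day 2 was 0.18 ± 0.20 (adjusted p = 0.702).

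Macrophage and complement genes had medians of 0.28 (13 genes) and 0.48 (8 genes) on day 5, with none called on either list. The complement median was 0.76 without day 5 mouse 5 and 0.27 with array weights. The macrophage median was 0.18 from technical column 2 alone, and had been 0.61 on day 2. The 3 chains of complement C1q, which splenic macrophages make and which assemble into 1 molecule, had unlike values. C1qa had 0.60, 0.77 and -0.14 in the 3 untreated mice with a value and 1.63, 2.79, 2.16, 2.64 and 2.01 on day 5, with no overlap. The difference was 1.84 ± 0.48 (adjusted p = 0.516), and day 5 was 1.76 ± 0.44 above day 2 (adjusted p = 0.0278). C1qc had 1.02 ± 0.47 and C1qb -0.15 ± 0.54 (adjusted p = 0.913 and 0.988).

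C1ra, a protease of the same complex, had 0.62 ± 0.29, and Serping1, the inhibitor of that protease, 0.57 ± 0.32 (both adjusted p = 0.913). Serping1 had risen by 1.41 ± 0.32 on day 2 (adjusted p = 0.00800). Siglec1, the sialic acid receptor of marginal metallophilic macrophages, had 0.69, 1.12, 0.75, 0.76 and 1.00 in untreated and 0.70, 1.47, 1.34, 1.06 and 1.00 in day 5 mice, which overlapped. Its difference was 0.25 ± 0.16 (adjusted p = 0.913, interval -0.07 to 0.57). It had risen by 1.24 ± 0.16 on day 2 (adjusted p = 2.22e-05), and day 5 was lower than day 2 by 0.99 ± 0.16 (adjusted p = 0.000436).

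No measured gene of the lymphocyte lists passed the threshold against untreated spleen. Both probes called lower carry no gene name, so the cells they come from are not known. The lowest median of all 35 lists was that of plasma cells, -0.27 over 10 genes, with 2 genes at an unadjusted p under 0.05, both lower (2.15% of all probes). After quantile normalization that median was -0.42. Mzb1, a chaperone that plasma cells and marginal zone B cells use to assemble antibody, had 2.05, 1.34, 1.37, 1.26 and 2.53 in untreated and -0.15, 1.22, -0.19, 0.65 and 0.60 in day 5 mice. The groups did not overlap, by a margin of 1.26 against 1.22. The difference was -1.28 ± 0.31 (adjusted p = 0.365), which passed after quantile normalization, where it was -1.51. Irf4, the transcription factor that plasma cells need, had -0.41 ± 0.17, Pou2af1, a B cell coactivator, -0.43 ± 0.23, and Tnfrsf13b, the receptor TACI, -0.32 ± 0.23 (all adjusted p = 0.913). The plasma cell score of the day 5 mice ran from -0.55 to -0.03 and that of the untreated mice from -0.09 to 0.27.

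Tnfsf13 and Tnfsf13b encode APRIL and BAFF, the ligands that keep plasma cells and B cells alive. Tnfsf13 had -0.81, -2.07, -1.16, -0.75 and -0.92 in untreated and -0.73, 0.10, -0.53, 0.08 and -0.24 in day 5 mice. The groups were apart by a narrow margin, and untreated mouse 2 was far below the others. Its difference was 0.88 ± 0.21 (adjusted p = 0.365), after 0.76 ± 0.21 on day 2 (adjusted p = 0.0308). Tnfsf13b had 0.91 ± 0.32 (adjusted p = 0.895), with untreated mouse 2 at -3.26, after 1.13 ± 0.32 on day 2 (adjusted p = 0.0292).

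Mature B cell genes had a median of -0.12 over 11 genes, against 0.26 on day 2. On day 5, 5 genes lay above and 6 below the untreated mean, the highest at 0.34. An unadjusted p under 0.05 was found for 1 higher and 2 lower genes (3.04% and 2.15% of all probes). Cd22, an inhibitory coreceptor of the B cell receptor, had 1.44, 1.28, 1.54, 1.32 and 1.78 in untreated mice, 1.91, 1.38, 2.28, 2.12 and 1.84 on day 2 and 1.19, 1.06, 0.77, 0.78 and 0.95 on day 5. All day 5 mice lay below all untreated and all day 2 mice. The difference from untreated was -0.52 ± 0.16 (adjusted p = 0.667), while day 5 was lower than day 2 by 0.96 ± 0.16 (adjusted p = 0.000628). Ms4a1, the CD20 gene, was similar, with -0.39 ± 0.18 against untreated (adjusted p = 0.913) and -0.66 ± 0.18 against day 2 (adjusted p = 0.0336).

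The T cell list had a median of -0.02 over 12 genes, against 0.26 on day 2, and the regulatory T cell list -0.25 over 11 genes, against -0.27 on day 2. Cd28, the costimulatory receptor of T cells, had -0.40 ± 0.18, Entpd1, the ectoenzyme CD39, -0.43 ± 0.16 with 4 mice a group, and Itgae, the integrin CD103, -0.28 ± 0.17 (all adjusted p = 0.913). In the regulatory T cell list 10 of 11 genes lay below the untreated mean, as did 4116 of all 8619 probes, and 1 had an unadjusted p under 0.05 (2.15% of all probes were lower at that p). That list's median was -0.15 without untreated mouse 2, -0.11 without day 5 mouse 5, -0.15 with the mouse number as a block, -0.09 without the 3 mice of low technical correlation and -0.07 over probes measured in all 10 mice. Lists of dendritic cells, B cell precursors, germinal centre B cells, and NK and cytotoxic cells held no called gene and had medians between -0.04 and 0.09.

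**Figure D4:**
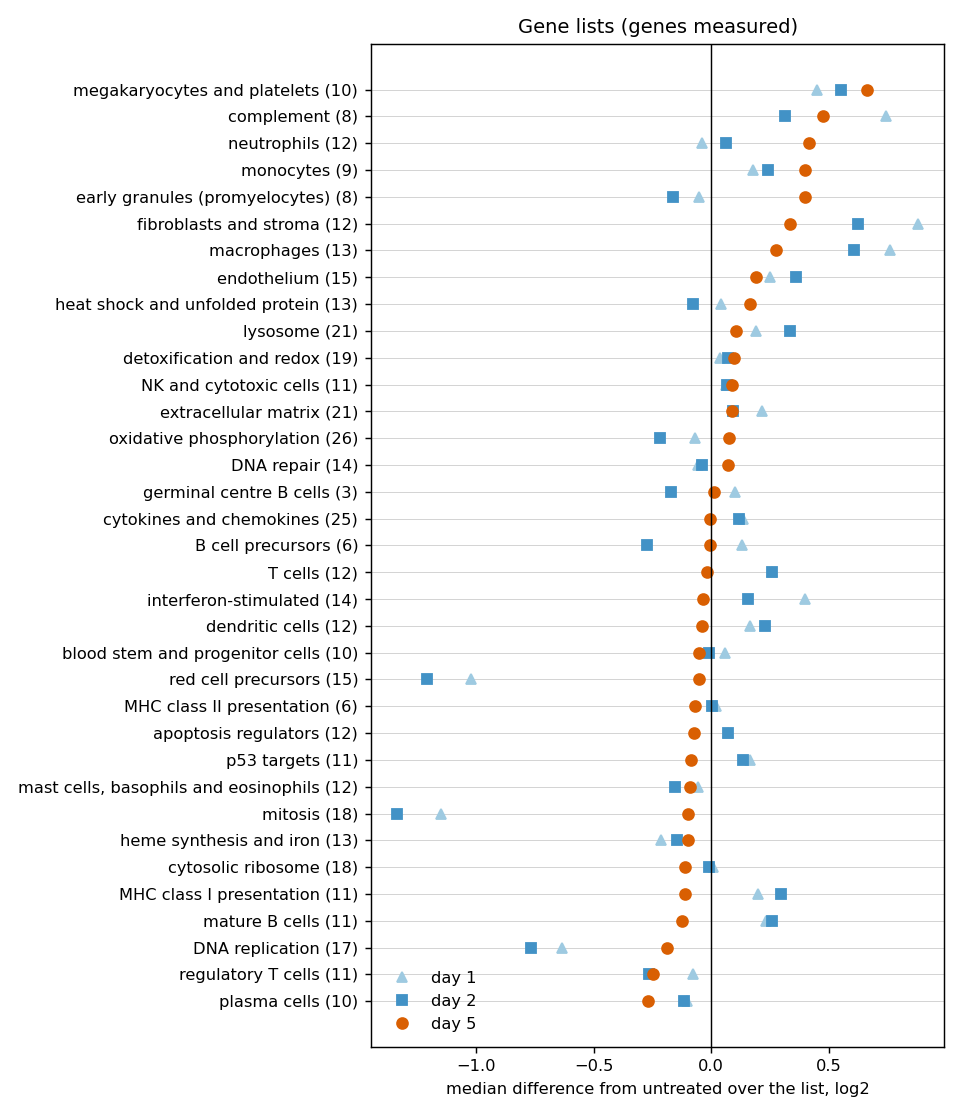
Median difference from the untreated mice over each of 35 gene lists (genes measured in parentheses) on day 1, day 2 and day 5, log2 scale, ordered by the day 5 median. The day 5 medians run from -0.27 for plasma cells to 0.66 for megakaryocytes and platelets, and those of mitosis, DNA replication and red cell precursors lie nearer 0 than their day 1 and day 2 medians.

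None of the 18 mitosis genes measured was called against untreated, and 1 higher and 1 lower had an unadjusted p under 0.05 (3.04% and 2.15% of all probes). The median difference was -0.10 on day 5, -1.34 on day 2 and -1.15 on day 1. Against day 2, 9 of 16 genes were called, all higher, where 3.63% of all probes were. The score over the list was 0.17, -0.31, -0.03, -0.20 and -0.16 in the day 5 mice, against -0.14 to 0.19 in the untreated and -1.82 to -0.68 in the day 2 mice. No day 5 mouse reached the day 2 range.

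Cdc20, an activator of the anaphase-promoting complex, had -0.33, -0.81, -0.50, -0.22 and -0.51 in untreated, -2.43, -2.76, -2.61, -2.18 and -2.37 in day 2 and -0.16, -0.64, -0.13, -0.44 and -0.61 in day 5 mice. The untreated and day 5 mice overlapped, and all day 2 mice lay far below. The day 5 difference was 0.08 ± 0.17 (adjusted p = 0.987, interval -0.27 to 0.43), and day 5 lay 2.07 ± 0.17 above day 2 (adjusted p = 4.45e-07). Cdk1, the kinase that starts mitosis, had -0.25 ± 0.17 (interval -0.60 to 0.11), after a fall by 1.90 ± 0.17 on day 2 (adjusted p = 3.17e-07). Cks2, a small partner of that kinase, had -0.04 ± 0.18, and Sgo1, which protects sister chromatid cohesion, -0.30 ± 0.22.

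Nuf2, a kinetochore protein, had -0.40 ± 0.19, Nusap1, a microtubule binder, -0.53 ± 0.26, and Tpx2, the activator of Aurora A, -0.48 ± 0.29 (all adjusted p = 0.913). All 3 lay above day 2, by 1.13 ± 0.19, 1.497 ± 0.26 and 1.14 ± 0.29 (adjusted p = 0.000987, 0.00119 and 0.0228). For Nusap1 and Tpx2 the lowest bound of the interval was -1.07, so that the interval reaches past 2-fold lower. Ccna2, cyclin A2, had 0.50 ± 0.23 (adjusted p = 0.913).

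DNA replication genes had a median of -0.19 on day 5, -0.77 on day 2 and -0.63 on day 1, with none of 17 called against untreated. The day 5 median was between -0.11 and -0.09 without untreated mouse 5, day 5 mouse 2 or day 5 mouse 3, with equal spread, or from technical column 1 alone. Of the 17 genes 14 lay below the untreated mean, as did 4116 of all 8619 probes. The score over the list ran from -0.31 to 0.07 in the day 5 mice and from -0.08 to 0.09 in the untreated mice. In the day 2 mice it ran from -1.02 to -0.44. Some day 5 mice thus lay below all untreated mice. Against day 2, 5 of 17 were called, all higher (3.63% of all probes were). Dut, which keeps uracil out of DNA, had 0.22, 0.01, -0.17, 0.17 and 0.17 in untreated and -0.03, 0.06, -0.41, -0.22 and -0.25 in day 5 mice, which overlapped. Its difference was -0.25 ± 0.14 (interval -0.55 to 0.04), and it lay 1.47 ± 0.14 above day 2 (adjusted p = 1.4e-06). Tyms, thymidylate synthase, had -0.21 ± 0.20 and lay 1.30 ± 0.20 above day 2 (adjusted p = 0.000378). Rrm2, a ribonucleotide reductase subunit, had -0.43 ± 0.31 and Mcm10, a replication origin factor, -0.37 ± 0.17, with a second Mcm10 probe at -0.36 ± 0.23. Neither was called against day 2, at 0.65 ± 0.31 and 0.26 ± 0.17 (adjusted p = 0.274 and 0.463).

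For the genes of red cell precursors the median difference was -0.05 on day 5, -1.21 on day 2 and -1.02 on day 1. None of the 15 genes measured was called against untreated and none had an unadjusted p under 0.05 in limma. Against day 2, 8 of 14 were called, all higher (3.63% of all probes were). Alas2, the enzyme that starts heme synthesis in red cell precursors, had -0.06, -0.29, -0.21, -0.40 and -0.58 in untreated, -4.41, -3.78, -4.67, -3.42 and -4.98 in day 2 and 0.02, -1.47, -0.56, -1.10 and -0.68 in day 5 mice. Day 5 mouse 1 lay above and day 5 mice 2, 4 and 5 below the untreated range, and none came near the day 2 values. The day 5 difference was -0.45 ± 0.32 (adjusted p = 0.913, interval -1.11 to 0.21), and day 5 lay 3.49 ± 0.32 above day 2 (adjusted p = 8.4e-07).

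The blood group genes Rhd and Kel had -0.20 ± 0.39 and -0.34 ± 0.30 on day 5 and lay 3.27 ± 0.39 and 2.08 ± 0.30 above day 2 (adjusted p = 2.29e-05 and 0.000168). A second Rhd probe had -0.04 ± 0.35 on day 5 and lay 1.29 above day 2 (adjusted p = 0.0381). Icam4, an adhesion protein of red cells, had -0.02 ± 0.37 and lay 2.19 ± 0.37 above day 2 (adjusted p = 0.000848). Rhag, the partner of the Rh proteins, had 0.34 ± 0.29 and Gata1, the transcription factor of red cells and megakaryocytes, 0.21 ± 0.26. Untreated mouse 2 was the lowest of its group for Rhd (-2.12), Rhag (-2.05) and Gata1 (-1.77), and is 1 of the 3 mice with a technical correlation under 0.7. The red cell score was 0.46 in day 5 mouse 1 and between -0.34 and -0.06 in the other 4, against -0.07 to 0.14 in untreated mice.

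**Figure D5:**
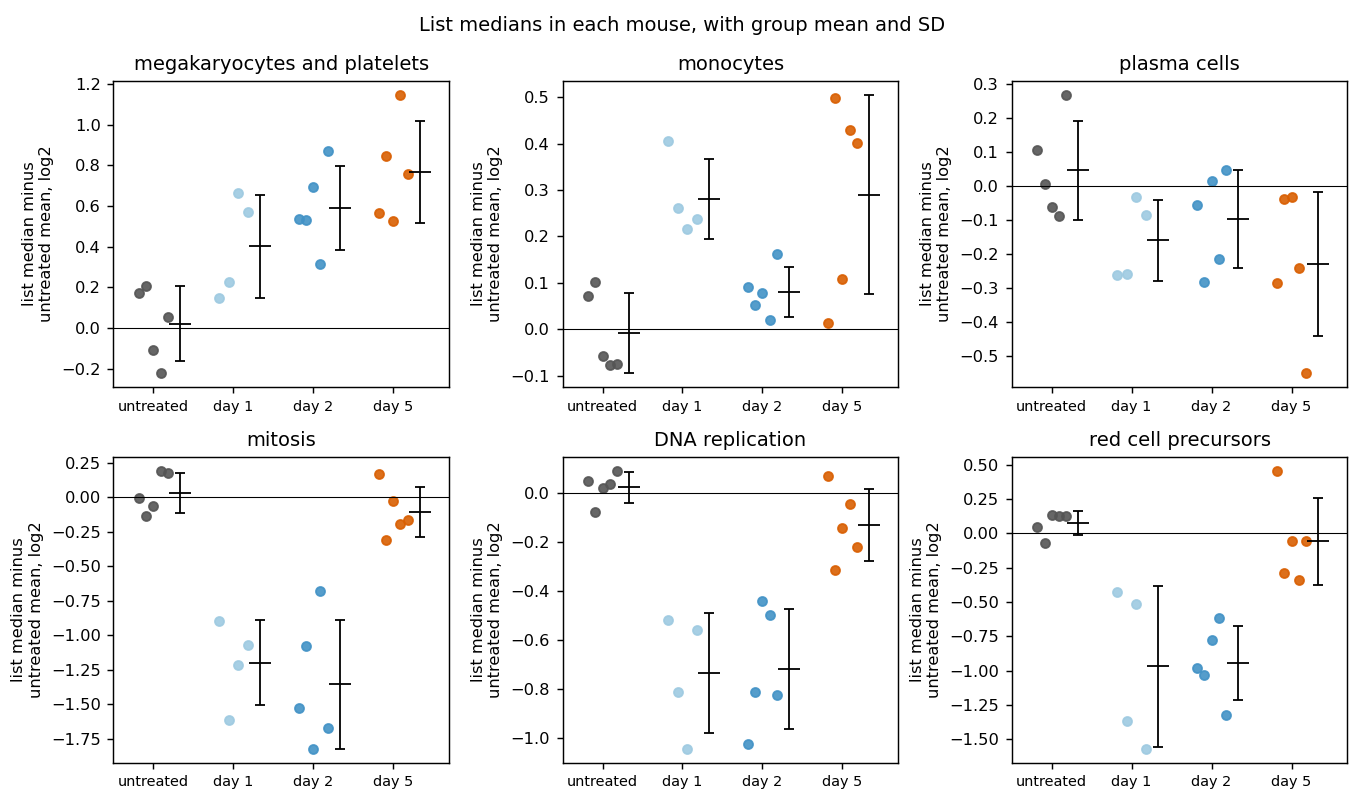
Median over a gene list in each mouse, as the log2 difference from the untreated mean, with the group mean and SD, for 6 lists; each panel has its own axis. The day 5 mice lie above the untreated mice for megakaryocytes and platelets (0.52 to 1.15 against -0.22 to 0.21). For mitosis, DNA replication and red cell precursors they lie above all day 2 mice, and some lie below all untreated mice. The day 5 mice run from -0.31 to 0.17 for mitosis, against -0.14 to 0.19 in untreated mice. For DNA replication they run from -0.31 to 0.07, against -0.08 to 0.09. For red cell precursors they run from -0.34 to 0.46, against -0.07 to 0.14.

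The p53 target list was mixed on day 5. None of 11 genes was called, and 4 higher and 2 lower had an unadjusted p under 0.05 (3.04% and 2.15% of all probes), with a median of -0.08. Cdkn1a, the cell cycle inhibitor p21, had 0.51 ± 0.23, Zmat3, an RNA-binding protein, 0.42 ± 0.17, Polk, a translesion DNA polymerase, 0.34 ± 0.14 and Aen, an apoptosis nuclease, 0.55 ± 0.21 (all adjusted p = 0.913). Trp53inp1, a stress protein that activates p53, had -0.38 ± 0.15. The lowest value of the list, -0.39, was that of a gene not named here. Over the list 5 genes lay above and 6 below the untreated mean. Against day 2, 1 of 11 list genes was called, and it was higher (3.63% of all probes were). None of the 5 genes named was called between day 2 and day 5, with differences from -0.29 to 0.18.

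Interferon-stimulated genes had a median of -0.03 over 14 genes, with 0 called against untreated by limma. An unadjusted p under 0.05 was found for 1 higher and 1 lower gene (3.04% and 2.15% of all probes). Zbp1, a sensor of nucleic acids, had 0.30 ± 0.13 and Gbp2, a guanylate-binding protein, -0.67 ± 0.31. Against day 2, 3 of 14 were called, all lower, where 1.44% of all probes were. Mx2, an antiviral GTPase, had -0.19 ± 0.13 against untreated and lay 0.69 ± 0.13 below day 2 (adjusted p = 0.00309). Rtp4, a chaperone of receptors, had -0.22 ± 0.15 and lay 0.65 ± 0.15 below day 2 (adjusted p = 0.0115).

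The remaining lists held no gene called against untreated. In detoxification and redox 2 of 19 genes had an unadjusted p under 0.05, both higher (3.04% of all probes were). They were the glutathione transferases Gstt1 at 0.37 ± 0.17 and Mgst1 at 0.51 ± 0.24 (both adjusted p = 0.913). The oxidative phosphorylation list had a median of 0.08 over 26 genes, the lysosome list 0.11 over 21, the extracellular matrix list 0.09 over 21 and the cytosolic ribosome list -0.11 over 18. Class I presentation had -0.11 over 11 genes and class II -0.07 over 6. DNA repair had 0.07 over 14 genes, heat shock and unfolded protein 0.17 over 13, apoptosis regulators -0.07 over 12, cytokines and chemokines -0.01 over 25, and mast cells, basophils and eosinophils -0.09 over 12. The heat shock median was -0.09 without the 3 mice of low technical correlation and -0.02 without untreated mouse 2. It was 0.02 over probes measured in all 10 mice and 0.22 without day 5 mouse 5. Heme synthesis and iron had -0.10 over 13 genes, and blood stem and progenitor cells -0.05 over 10. Of the 35 lists 34 had a day 5 median between -0.5 and 0.5 on the log2 scale, megakaryocytes and platelets being the exception. This holds for the fit reported: complement reached 0.76 and neutrophils 0.57 when 1 day 5 mouse was left out, and fibroblasts and stroma 0.52 with technical column 1 alone.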

How the data were processed

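Spleen RNA of 19 mice was measured on 2-colour arrays of 13443 probes, with 2 technical columns per mouse. The values were deposited by the authors as log ratios of Cy5 (spleen) over Cy3 (marrow pool), per the labels, and are treated as log2, an assumed base. No label or header used here names the scanner settings, background correction or normalization. From the values, columns were centred near 0 (medians -0.0212 to 0.0132), bounded at 6 in size, and 63.2% complete.

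Technical columns were averaged per mouse. limma 3.58.1 in R 4.3.3 fitted group means over the 19 mice, so all 4 groups share the estimate of spread, with Benjamini-Hochberg adjustment over all probes tested and a threshold of 0.05. Python 3.11.15 and matplotlib 3.10.9 made the figures. The fit was tested on simulated data with known day 5 changes. It found 77 of 100 changes of 2-fold and 97 of 100 of 4-fold, and 13 of 187 calls were false. With few probes changed it found 6 of 10 of 2-fold and 10 of 10 of 4-fold, and 1 of 17 calls was false. Some changes of 2-fold can thus be missed. The number of arrays limits the precision: the median standard error was 0.175. The labels call the mice independently harvested.

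Symbols came from the platform annotation: 10032 probes had 1 gene, 170 several and 3241 none. Of 861 list symbols 431 were measured. Members and the 35 lists were chosen with earlier results of these data known. Named were the probes past the threshold, the members of lowest p in each list (at most 4), and genes of the earlier days for contrast. Others (Pf4, Plek, Rab27b, Itgb3, Clec1b, Selp, P2rx1, Gsdma, Lyz2, Prtn3, S100a9, C1qb) were chosen after their values were seen. The labels do not say that mouse numbers pair mice, so numbers were not used as pairs. Deviations of same-numbered untreated and day 5 mice had r from -0.245 to 0.131 (mean -0.046). Those of same-numbered untreated and day 2 mice had r from -0.125 to 0.349. Alternatives covered scaling, technical columns, filters, the spread model and leaving out each mouse; leaving out the day 1 and day 2 mice was added after the data were seen.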

Additional observations from a re-analysis of the deposited data

Results flagged for a closer look

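In 11 of 154 groups of 4 or 5 mice tested, 1 mouse lay far from the rest of its group by Dixon's test, and chance flags about 1 in 20 groups. Untreated mouse 2 was such a mouse for Nusap1 (-1.29), Gata1 (-1.77), S100a9 (-4.00) and Rhd (-2.12). Untreated mouse 3 was for Kel (-1.19) and Plek (-1.27), untreated mouse 4 for Col14a1 (-0.22) and C1qb (-0.25), and untreated mouse 5 for Chil3 (-0.0460). Day 5 mouse 4 was for Cd177 (-1.38) and Plek (1.01). Untreated mice 2 and 4 are among the 3 mice whose technical columns correlated below 0.7. The part of these mice in the results was not tested beyond leaving each out.

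The day 5 and day 2 effects, which share the untreated mice, differed by the limma test of day 5 minus day 2 for 27 of the genes and probes named. Over all probes, 430 of 8477 (5.07%) passed that test. Some genes were named for their change on the earlier days, and that choice favours a difference here. The count of 27 is thus a description and no result about the named genes as a set. Among red cell genes the day 5 minus day 2 difference was 3.49 for Alas2, 3.27 for Rhd, 2.19 for Icam4 and 2.08 for Kel. In cell division it was 2.07 for Cdc20, 1.77 for Sgo1, 1.65 for Cdk1, 1.497 for Nusap1, 1.48 for Cks2, 1.14 for Tpx2 and 1.13 for Nuf2, and in DNA replication 1.47 for Dut and 1.30 for Tyms. Myeloid genes had 2.10 for F13a1, 1.76 for C1qa, 1.62 for Cd177, 1.499 for Hp and 1.48 for Ltf, and endothelial Eng had 0.52. Lower on day 5 than on day 2 were probe 012P16 (-1.24), Col14a1 (-1.08), Siglec1 (-0.99), Cd22 (-0.96), Mx2 (-0.69), Ms4a1 (-0.66), Rtp4 (-0.65) and App (-0.62).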

How the results depend on the processing

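Against untreated, limma called 0 probes with equal spread between mice (533 at an unadjusted p under 0.05), technical column 1 alone (415), technical column 2 alone (431), a variance trend (434), an adjusted p of 0.01 (447) or probes averaged per gene (324). It called 24 with both technical columns and mouse as a random effect (17 higher, 7 lower), 1 in a fit of the compared groups alone, and 1, a lower probe, without the 3 mice of low technical correlation. With the mouse number as a replicate block it called 0 (431 unadjusted), and 371 for day 5 against day 2. Leaving out 1 mouse gave 0 to 5 calls. Median centring gave 5, quantile normalization 6 (3 higher, 3 lower), the 3 filters 5, 6 and 6, and array weights 7. The cause of these changes was not tested.

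Day 5 against day 2 gave 69 calls after quantile normalization (57 higher), 153 with equal spread (134 higher) and 731 with mouse as a random effect (481 higher), beside 430 (308 higher) as reported, and 288 to 476 without 1 mouse. The percent of probes within 2-fold stayed between 91.0 and 95.5 (92.1 to 94.5 without 1 mouse).

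No result reversed among those called. Over 36 alternatives, 7 of 149 other named genes were newly called in some, 41 of their 5226 values changed sign, and 68 of 1260 list medians did.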
